A study of Rattus norvegicus with 34 samples.

Results

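Chromosome 2 of the rat had the lowest mean methylation signal of the 20 autosomes in sperm profiled by MeDIP-seq, and the measurements below describe that chromosome. Its members are all 1 kb windows that both deposited tables assign to chromosome 2 of the rat genome build Rnor_6.0: 266436 of 2782040 windows in all, next to 2352305 windows on the other autosomes. The chromosome was chosen by its mean MeDIP signal in these same libraries, the lowest of the autosomes, so its level, its share of high windows and its share of empty windows are given as a description with no test. The rule that picks its windows uses no comparison between groups of pools.

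The study followed the sperm of rats of the outbred strain Hsd: Sprague Dawley SD whose male ancestor had received ifosfamide, an alkylating chemotherapy drug. F0 males were injected intraperitoneally with 8.5 mg/kg ifosfamide, or with 1.1 mL/kg PBS as the control, on days 26, 29 and 32 of life, and no later generation was treated. The groups compared here are 6 pools of F1 males of the PBS lineage (F1 control), 6 pools of F1 males of the ifosfamide lineage (F1 ifosfamide) and 6 pools of F2 males of the ifosfamide lineage (F2 ifosfamide). DNA of 3 to 4 males made up each F1 pool, and DNA of 8 to 9 males each F2 ifosfamide pool. All F1 animals descend from 3 control and 5 ifosfamide F0 males, so pools of a lineage share sires. The labels count 43 F2 ifosfamide males, while 6 pools of 8 would need 48, so it is not given how males were divided among those pools. Sperm came from the cauda of the epididymis, and somatic cells were removed by brief sonication. F0 libraries and F2 control libraries were not analysed here. F1 and F2 ifosfamide were both set against the same F1 control pools, and the F2 against F1 control comparison changes lineage and generation together.

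In MeDIP-seq, sheared and denatured DNA is precipitated with an antibody to 5-methylcytosine and sequenced, so a window gathers many reads when it holds many methylated CpG sites and few when it holds few CpG sites or unmethylated ones. Mammalian sperm DNA is methylated over most CpG sites outside CpG islands and active regulatory elements, and it carries that pattern to the zygote, where most of it is later erased. A window with no reads may have no CpG, no methylation or no sequence to which reads can be placed, and MeDIP counts do not separate these cases. The signal is given here as CPM, a window's count per 1000000 counts over all autosomal windows of the same pool.

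The 18 pools held 23336048 to 39440265 window counts each, and chromosome 2 held 2060175 to 3522561 of them. A read that touches neighbouring windows is counted in each, and the pools differed in this, from 1.16 to 1.25 windows per read. No 2 pools of a group agreed within sampling noise over the windows of chromosome 2. F1 ifosfamide pool 5 stood apart from the other 17: chromosome 2 reached 96.8% of their mean share there, the lowest of its 20 autosomes, while chromosome 12 reached 106%. That pool was the lowest of the 18 in 155 of 266 bins of 1 Mb on chromosome 2 (58.3%, where an even division gives 5.56%). Results that rest on it are given below with and without it.

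In F1 control sperm, chromosome 2 had a mean signal of 0.341 ± 0.00237 CPM per window (SD, n = 6), against 0.386 ± 0.000268 over the other autosomes. The lowest control pool stood at 0.339 CPM, the median at 0.341 and the highest at 0.345. As a percent of the other autosomes, chromosome 2 was at 87.6% in the lowest control pool, 88.2% at the median and 89.3% in the highest. It ranked lowest of the 20 autosomes in each of the 18 pools. Chromosome 11 came next at 0.356 ± 0.00226 CPM, chromosome 4 at 0.360 ± 0.00139, and chromosome 12 was highest at 0.50 ± 0.0099. No control pool placed chromosome 2 as high as the control mean of chromosome 11, and the step between those neighbours was larger than the spread of either. Among the autosomes only chromosome 1 (283 Mb) is longer in these tables than chromosome 2 (266 Mb), and chromosome 1 had 0.412 CPM and ranked 16 from the lowest. Over the 20 autosomes the rank correlation of signal with length was -0.47, and -0.41 without chromosome 2, given as a description.

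**Figure D1:**
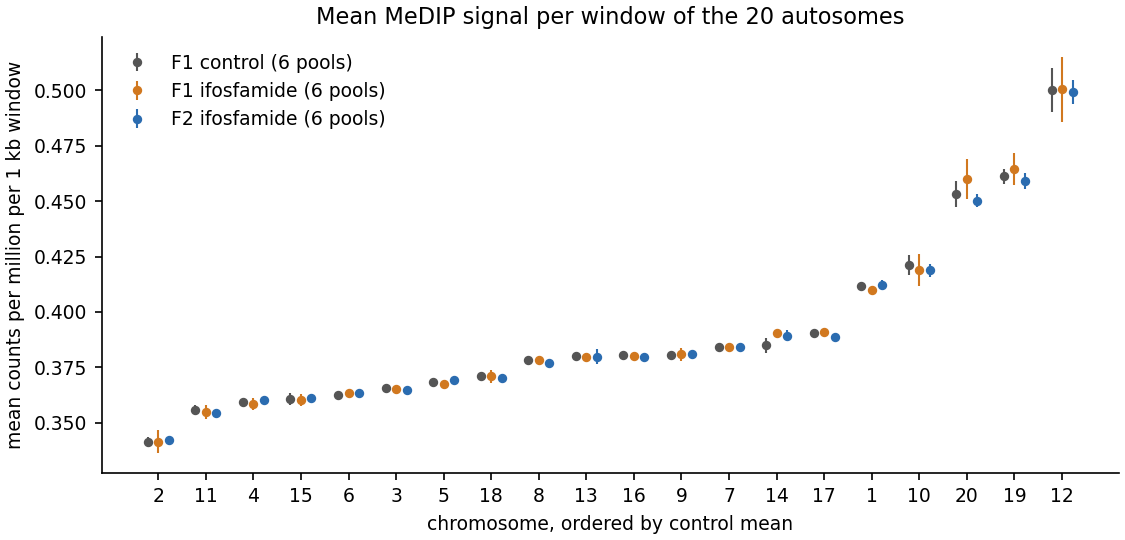
Mean MeDIP signal per 1 kb window (CPM, vertical axis) of each of the 20 autosomes, ordered by the control mean; points are means over 6 pools and bars are SD. Chromosome 2 lies at 0.341 to 0.342 in the 3 groups, below chromosome 11, and the bar of the F1 ifosfamide group on chromosome 2 is the longest of its 3.

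The lower mean was not the work of a few windows. The whole distribution of control signal on chromosome 2 lay below that of the other autosomes. The median window had 0.202 CPM against 0.237, which is 85.5% of the others' value. At the 10th percentile chromosome 2 had 74.5% of the others' signal, at the 75th 87.5%, at the 90th 90.3% and at the 99th 99.4%. The gap closed toward the upper end, then opened again at the 99.9th percentile, with 88.4%. Sorted into the deciles of the other autosomes, 12.1% of chromosome 2 windows fell in the lowest decile and 8.27% in the highest, and the share fell at every step between them.

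**Figure D2:**
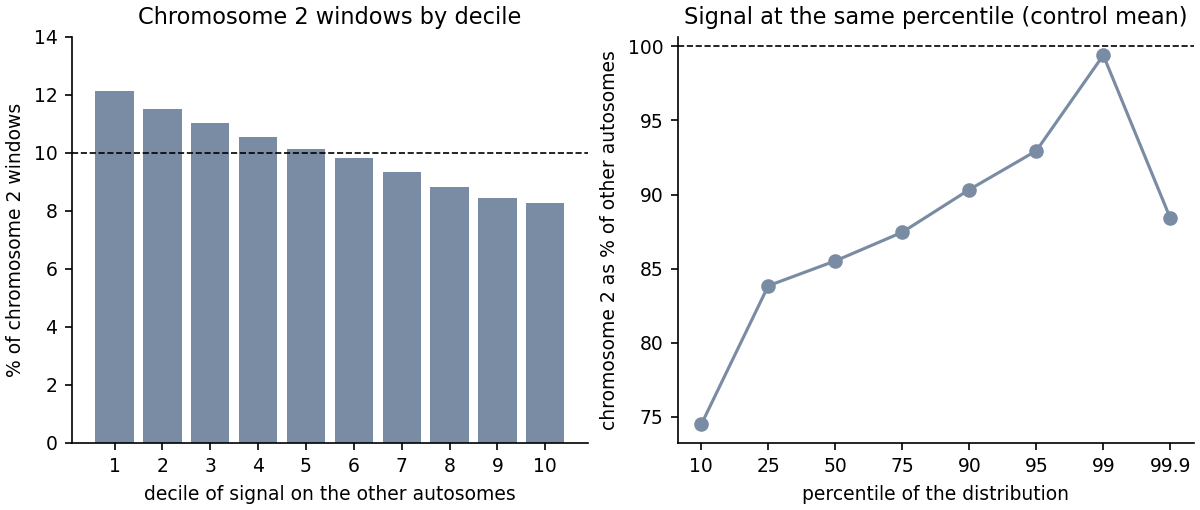
Left, the percent of chromosome 2 windows (vertical axis) in each decile of control signal on the other autosomes, with the even share of 10% dashed; the bars fall from 12.1% to 8.27%. Right, the control signal of chromosome 2 as a percent of the other autosomes (vertical axis, not starting at 0) at the same percentile of each distribution, rising from 74.5% at the 10th to 99.4% at the 99th and back to 88.4% at the 99.9th.

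High windows were fewer on chromosome 2. Of its windows 22431 (8.42%) were among the highest 10% of all autosomal windows, which starts at 0.855 CPM, the smallest share of the 20 autosomes. Among the highest 1%, from 2.16 CPM, it had 2625 windows (0.985%), rank 11 from the lowest. The shortage was in windows of upper middle signal, while the strongest windows had about their even share in number, with a mean of 3.14 CPM against 3.93 on the other autosomes. Of the gap of 0.0452 CPM between the means, windows between the 75th and 90th percentile carried 31.9%, those between the 90th and 99th carried 45.0% and the highest 1% carried 18.5%. Windows below the 75th percentile that were not empty carried 4.59%. These shares compare summed signal per class, with the same cuts for all autosomes. In that lower class chromosome 2 had more windows (72.8% of its windows against 69.8%) but a lower mean (0.185 CPM against 0.196). The 2 offset each other in the sum, so the small share does not mean equal signal in low and middle windows. High windows on chromosome 2 were also more often neighbours: 16.7% of them lay in runs of 5 or more, in 639 runs, against 12.8% on the other autosomes.

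Empty windows were more frequent. On chromosome 2, 15467 windows (5.81%) had no count in any of the 6 control pools, against 4.80% on the other autosomes. A count of 14132 windows was empty in all 18 pools. With every pool thinned to the depth of the smallest, 14.1% ± 0.735 of chromosome 2 windows were empty in a control pool (SD, n = 6), against 11.9% ± 0.693 elsewhere. Long empty runs had a like share: runs of 50 or more windows held 12.7% of its empty windows and 12.1% of those on the other autosomes. The 3 longest ran over 149 windows each, at chr2:21267001-21416000, chr2:87162001-87311000 and chr2:166495001-166644000. No genome sequence of this build was used here, so it is not given whether these runs are assembly gaps.

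The strongest windows lay partly in short runs and partly alone. The longest run of high windows spanned 23 windows at chr2:156979001-157002000, with a mean of 7.48 CPM. The next spanned 14 windows at chr2:49353001-49367000 (15.9 CPM) and 13 windows at chr2:49316001-49329000 (5.90 CPM). The single highest window, chr2:236613001-236614000, had 29.7 CPM in the lowest control pool, 31.7 at the median and 43.9 in the highest, and its mean of 33.8 ranked 160 among all autosomal windows. The windows at chr2:49293001-49294000 (30.4 CPM), chr2:49365001-49366000 (24.9 CPM) and chr2:49294001-49295000 (22.2 CPM) lay within the same 100 kb. The window at chr2:92244001-92245000 had 24.4 ± 5.47 CPM (SD, n = 6) and 11385 counts over the 18 pools, while the windows before and after it had 45 and 21. That window stands alone among near-empty neighbours, and windows of this shape are called isolated below (at least 10 times the counts of each neighbour).

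Along the chromosome, signal varied between bins of 1 Mb from 0.141 to 0.799 CPM per window. The 266 bins of at least 500 windows had a median of 0.327 CPM per window, against 0.369 for the 2352 bins elsewhere. Of the bins of chromosome 2, 8 (3.01%) lay in the highest 10% of autosomal bins, against 10.8% of the other autosomes' bins, and 37 (13.9%) in the lowest 10%, against 9.57%. The highest bin, from 156000001, had 0.799 ± 0.0317 CPM (SD, n = 6) and holds most of the longest high run. The bin from 49000001 had 0.724 ± 0.0340 and holds the cluster of strong windows described above. The first bin of the chromosome followed at 0.613 ± 0.0214, then the bins from 259000001 (0.581 ± 0.00919) and 236000001 (0.571 ± 0.0192). The lowest bin, from 87000001, had 0.141 ± 0.00269, and 26.9% of its windows were empty in all pools. The bins from 132000001 (0.178 ± 0.00696), 110000001 (0.179 ± 0.00739), 71000001 (0.180 ± 0.00525) and 192000001 (0.183 ± 0.00764) came next, and these 4 did not differ from each other beyond their spread. In the bins from 110000001 and 71000001 only 5.90% and 6.5% of windows were empty, close to the share over the whole chromosome.

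The ends were higher than the middle. The first 10 Mb averaged 0.430 CPM, 128% of the interior, the highest such ratio of the 20 autosomes (chromosome 3 followed with 127%). The last 10 Mb were at 109% of the interior, rank 16. The interior alone, at 0.337 CPM, was still the lowest of the 20. In steps of 10 Mb, signal was highest from 20 to 30 Mb (0.469 ± 0.00669 CPM) and from 250 to 260 Mb (0.456 ± 0.00451), and lowest from 130 to 140 Mb (0.233 ± 0.00596) and from 100 to 110 Mb (0.254 ± 0.00425). Neighbouring 1 Mb bins resembled each other, with a correlation of 0.48 across bins, which share pools and depth.

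**Figure D3:**
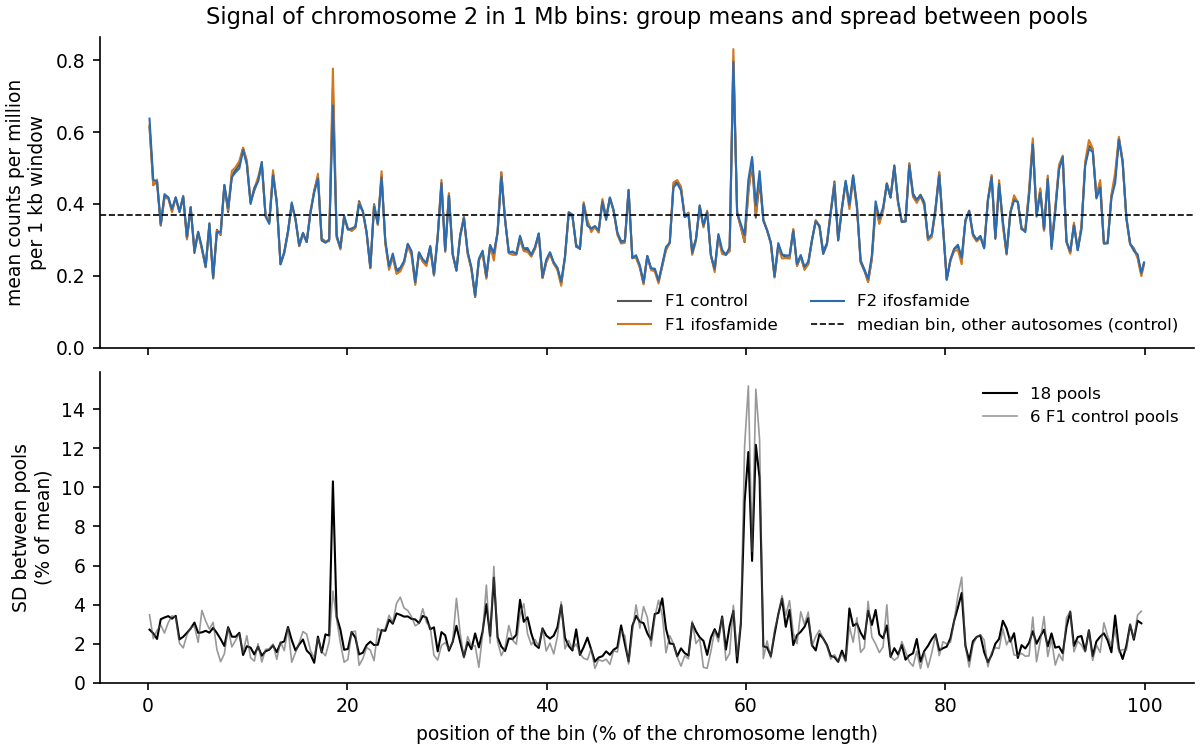
Top, mean signal per 1 kb window (CPM) of each 1 Mb bin along chromosome 2 by group, against the position of the bin as a percent of the chromosome length; the dashed line is the median bin of the other autosomes at 0.369. Bottom, SD between pools as a percent of the mean. The 3 group lines nearly coincide in most bins. The spread stands out in bins just past 60% of the length and in the bin near 19%. In the latter F1 ifosfamide pool 4 was high, and F2 pools 2 to 6 lay below every F1 ifosfamide pool.

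A stretch of the chromosome differed between pools far more than the rest. It was drawn after the values were seen, as the longest run of 100 kb steps whose SD over the 18 pools lay above the median of all steps (4.85% of the mean): it covers 54 steps at chr2:158600001-164000000, and the next longest such run covers 19. Its 5 complete bins of 1 Mb had the largest spread between control pools of all bins on chromosome 2, 6.71% to 15.2% of the mean, while the median bin had 2.05%, of which counting alone gives 1.07%. Among the bins of all autosomes these 5 ranked 4, 5, 10, 11 and 43 from the largest spread. Bins as variable thus lay on other autosomes too. Mean signal in the stretch was 0.339 CPM in the lowest control pool, 0.425 at the median and 0.460 in the highest. F1 ifosfamide pools ran from 0.345 through a median of 0.409 to 0.490, and F2 ifosfamide pools from 0.398 through 0.429 to 0.462. All 3 groups overlapped. Across the 18 pools the highest value was 1.44 times the lowest. The rest of chromosome 2, an average over a far longer part, varied by 1.04 times. In 47 other blocks of chromosome 2 of the same length, the SD over the 18 pools had a median of 1.45% of the mean. The highest of these blocks had 3.45%, against 9.49% in the stretch. The stretch was picked for its spread over these same pools, so a larger spread there is favoured by the choice. In the stretch 19.5% of windows were empty in all pools, against 5.01% on the rest of the chromosome. Bins on other autosomes followed the same order of pools closely, with the highest correlations over 18 pools at 21 to 22 Mb of chromosome 15 (r = 0.99, Spearman's rho 0.97) and 95 to 96 Mb of chromosome 14 (r = 0.99, rho 0.97). Without the 2 pools farthest from the median, r was 0.99 and 0.98. Of 2352 bins on the other autosomes, 19 reached r of 0.9. The 47 other blocks of chromosome 2 of the same length had 0 to 33 such bins each, with a median of 1. These correlations share library and depth and were picked as the highest of many, so they are a description.

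Chromosome 2 as a whole did not differ between F1 ifosfamide and F1 control by more than the spread between F1 pools. Chromosome 2 held 9.09% ± 0.0630 of autosomal counts in F1 control and 9.10% ± 0.136 in F1 ifosfamide (SD, n = 6 each). In F1 control pools the share was 9.02% at the lowest, 9.08% at the median and 9.18% at the highest. In F1 ifosfamide it was 8.83%, 9.14% and 9.20%, and the groups overlapped. The log2 difference in share was 0.00078 ± 0.0098 (SE), with an exact permutation p = 0.963 (two-sided, 924 splits, smallest possible p 0.00216; adjusted over 20 autosomes 0.996). The background was 0% of the 20 autosomes past an adjusted p of 0.05, and 1 at an unadjusted p below 0.05. Without F1 ifosfamide pool 5 the difference was 0.0095, and it was below 0 in 8 of the 12 fits that left out 1 pool.

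To compare at matched signal, non-empty autosomal windows were cut into 20 strata of equal size by their mean over the 18 pools. The log2 ratio of chromosome 2 to the other autosomes was taken within each stratum and averaged over the windows of chromosome 2. In F1 control pools this index was -0.021 at the lowest, -0.010 at the median and 0.0060 at the highest, and in F1 ifosfamide pools -0.036, 0.0014 and 0.0074. The groups overlapped, with a difference of 0.0032 ± 0.0079 (SE; exact permutation p = 0.697, adjusted 0.970). Of the autosomes 0% passed in this measure, with 0 at an unadjusted p below 0.05. Without pool 5 of F1 ifosfamide the difference was 0.0096. The excess of empty windows over the other autosomes at equal depth was 2.21 ± 0.0917 percentage points in control and 2.18 ± 0.0786 in F1 ifosfamide (SD, n = 6 each). It differed by -0.028 ± 0.049 (SE; exact permutation p = 0.595, adjusted 0.763), again with 0% of autosomes past the threshold and 0 unadjusted.

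**Figure D4:**
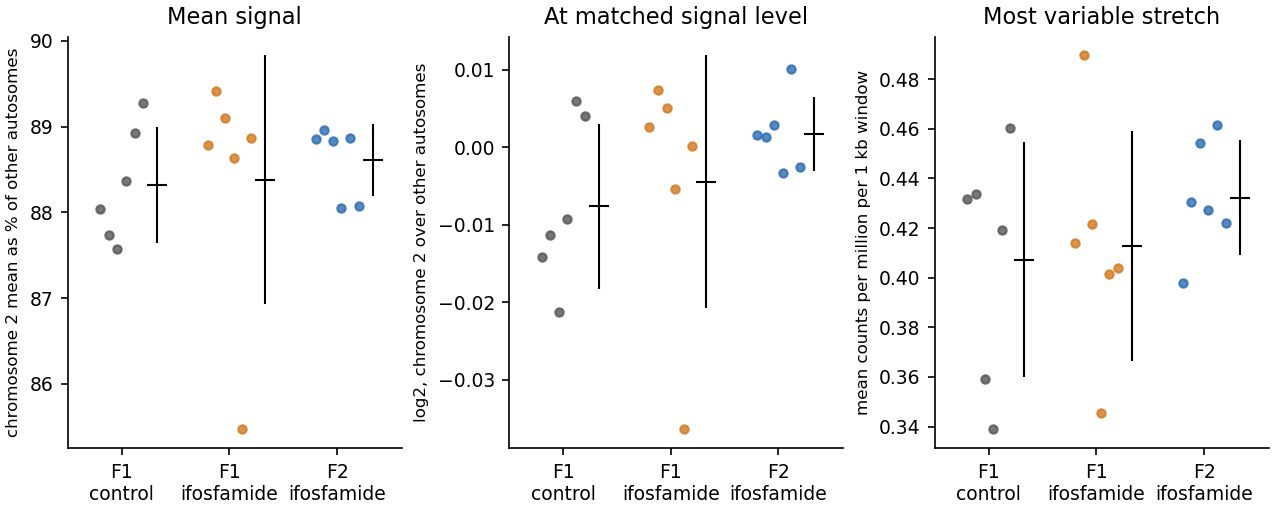
Values of chromosome 2 in each of the 6 pools of the 3 groups, with mean and SD in black; vertical axes do not start at 0. Left, mean signal as a percent of the other autosomes; middle, log2 ratio to the other autosomes at matched signal level; right, mean CPM in the most variable stretch. In the left and middle panels 1 F1 ifosfamide pool, number 5, lies below all others.

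Single windows did differ between F1 ifosfamide and F1 control, nearly all of them downward. With edgeR's quasi-likelihood test and Benjamini-Hochberg adjustment over all 1043656 windows tested, 60 of 92174 tested windows of chromosome 2 had an adjusted p below 0.05, which is 0.0651%, beside 0.0557% of all windows tested. Of these, 59 were lower and 1 was higher. Over all windows tested 530 were lower (0.0508%) and 51 higher (0.00489%). The windows called were strong ones, with a median of 2.53 CPM against 0.562 among those tested, and 46 of the 60 lay in the highest stratum, where 0.410% of chromosome 2 windows and 0.333% of the others were called. They were scattered over 47 bins of 1 Mb with at most 4 in a bin. In 11 of the 60 (18.3%) the window was isolated in the sense given above, against 0.285% of windows tested. Called windows were stronger than those tested, and these 2 shares were not compared at matched signal. In 18 of the 60 (30.0%) the 2 groups did not overlap, against 0.324% of windows tested, a contrast favoured by selection on these same groups. The number depended on single pools: it was 185 without F1 control pool 1, 138 without F1 ifosfamide pool 1, 108 without F1 ifosfamide pool 4, 35 without F1 control pool 3, 31 without F1 control pool 2, 28 without F1 ifosfamide pool 6, 17 without F1 control pool 6, 14 without F1 ifosfamide pool 3 and 10 without F1 control pool 4.

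The window with the smallest p, chr2:127567001-127568000, had 8.27 CPM in the lowest F1 control pool, 10.8 at the median and 19.6 in the highest, and 5.43, 6.77 and 8.13 in F1 ifosfamide. F1 control pools 4 and 6 had 18.2 and 19.6 CPM there, the other control pools 8.27 to 10.9. The groups did not overlap, and the log2 fold change was -0.94 ± 0.14 (SE; edgeR adjusted p = 0.000274). It is isolated, with 5700 counts over the 18 pools beside 164 and 134 in its neighbours. The window at chr2:102159001-102160000 had 1.75, 2.46 and 4.86 CPM in control and 1.04, 1.37 and 1.85 in F1 ifosfamide, where 2 pools overlapped the control range (log2 fold change -0.96, adjusted p 0.00190). The 4.86 CPM was F1 control pool 4, with the other control pools at most at 3.18. At chr2:214675001-214676000 the control pools had 2.30, 2.98 and 4.77 CPM and the F1 ifosfamide pools 1.45, 1.90 and 2.13, without overlap (log2 fold change -0.85, adjusted p 0.00222). F1 control pools 4 and 6 were again the highest there, with 4.77 and 4.68 CPM (other control pools 2.30 to 3.13). At chr2:1636001-1637000, also isolated, control and F1 ifosfamide had 2.91, 4.32 and 5.67 against 2.09, 2.41 and 2.78, without overlap (-0.78, adjusted p 0.00229). At chr2:257256001-257257000 they had 0.992, 1.35 and 1.62 against 0.346, 0.623 and 1.13, with overlap (-1.08, adjusted p 0.00335). F1 control pool 6 was the highest control pool at the former and the lowest at the latter. The only higher window, chr2:78049001-78050000, was weak, with 0.156, 0.254 and 0.444 CPM in control and 0.418, 0.735 and 0.992 in F1 ifosfamide (log2 fold change 1.42 ± 0.25 SE, adjusted p 0.00294). The authors' deposited table called 24 windows of chromosome 2 in this comparison, 23 lower and 1 higher, and 21 of them were also called here.

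At the scale of 1 Mb no change passed. None of the 267 bins of chromosome 2 passed an adjusted p of 0.05 by edgeR, and the background was 0% of 2794 bins. At an unadjusted p below 0.05 there were 18 bins (6.74%, beside 7.12% of all bins), and DESeq2 called 0 (0.358% of all bins). The smallest p among bins above and below 0 belonged to bins that did not pass: from 122000001 (log2 fold change 0.042 ± 0.014 SE), 77000001 (0.036 ± 0.013), 92000001 (-0.086 ± 0.029) and 217000001 (-0.065 ± 0.028), each with an edgeR adjusted p of 0.677. The fold changes of all bins ran from -0.086 to 0.11, with a median of 0.0043 beside 0.0033 on the other autosomes.

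F2 ifosfamide against F1 control gave a like picture for the chromosome as a whole. Chromosome 2 held 9.07% of autosomal counts in the lowest F2 pool, 9.14% at the median and 9.15% in the highest, within the control range. The log2 difference in share was 0.0043 ± 0.0048 (SE; exact permutation p = 0.374, adjusted 0.575), beside a background of 0% of autosomes called and 3 at an unadjusted p below 0.05. At matched signal level the F2 pools had an index of -0.0033 at the lowest, 0.0015 at the median and 0.010 at the highest. Each of the 6 lay above the control mean and 1 above all control pools. The difference was 0.0093 ± 0.0048 (SE), rank 2 from the highest of the 20 autosomes, and did not pass (exact permutation p = 0.0779, adjusted 0.416; 0% of autosomes called, 2 unadjusted). The excess of empty windows was 2.25 ± 0.0580 percentage points in F2, a difference of 0.034 ± 0.044 (SE; exact permutation p = 0.457, adjusted 0.702; 0% of autosomes called, 2 unadjusted). Strata did not behave alike: the index difference was 0.014 in stratum 1, 0.012 in stratum 2 and -0.0086 in stratum 3. It was positive from stratum 4 to stratum 19, between 0.0039 and 0.021, and -0.0095 in the highest stratum. In that stratum chromosome 2 was 0.075 below the other autosomes in control on the log2 scale. Single strata were not tested.

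At single windows, 12 of 80628 tested on chromosome 2 passed between F2 ifosfamide and F1 control (0.0149%), beside 0.0275% of 919249 windows tested. Of these, 10 were higher, beside 0.0165% of all windows, and 2 were lower, beside 0.011%. The 12 lay in 12 different bins of 1 Mb. Leaving out F2 ifosfamide pool 1 gave 104 (58 higher and 46 lower), F1 control pool 6 gave 51 (29 and 22) and F1 control pool 4 gave 39 (25 and 14), so the lean to higher windows was weaker in these larger sets. Without F1 control pools 3 or 5 there were 7, without F2 ifosfamide pool 3 there were 5, without F2 pools 4 or 5 there were 4, and without F1 control pool 2 or F2 pool 6 there were 3. The strongest was chr2:155784001-155785000, with 0.888 CPM in the lowest control pool, 1.81 at the median and 2.43 in the highest, and 1.99, 5.36 and 6.96 in F2 ifosfamide. F2 pools 1 and 2, at 1.99 and 2.43 CPM, lay within the control range, and F2 pools 3 to 6 had 5.11 to 6.96. The log2 fold change was 1.39 ± 0.15 (SE, with edgeR adjusted p = 1.12e-09), so it was not shared by all F2 pools. F1 ifosfamide pools had 0.707, 1.32 and 2.00 CPM there.

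The window at chr2:198036001-198037000 had 0.525, 1.00 and 1.12 CPM in control and 1.44, 1.88 and 2.11 in F2, without overlap (log2 fold change 0.90, edgeR adjusted p 0.00126). At chr2:125562001-125563000 the values were 3.21, 4.18 and 5.56 in control and 4.65, 7.21 and 9.02 in F2 (0.67, adjusted p 0.00496). At chr2:218342001-218343000, a weak window, they were 0.212, 0.288 and 0.484 against 0.654, 0.708 and 0.828, without overlap (1.18, adjusted p 0.0164). At chr2:50061001-50062000 they were 1.59, 2.10 and 3.05 against 2.65, 3.82 and 4.02 (0.65, adjusted p 0.0164). The 2 lower windows were chr2:178366001-178367000, with 0.442, 0.793 and 1.15 CPM in control and 0.263, 0.327 and 0.454 in F2 (-1.13, adjusted p 0.0176), and chr2:49325001-49326000, with 5.96, 7.01 and 8.77 against 3.79, 4.01 and 8.31 (-0.58, adjusted p 0.0359). The latter lies in the run of 13 strong windows described above, and 1 F2 pool, number 1, stood far above the other 5 there. The call was lost in 11 of the other settings at chr2:49325001-49326000, in 7 each at chr2:178366001-178367000 and chr2:50061001-50062000 and in 3 at chr2:218342001-218343000. The authors' deposited table called 10 windows of chromosome 2 in this comparison, 5 in each direction, of which 4 were called here.

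No bin of 1 Mb on chromosome 2 passed between F2 ifosfamide and F1 control by edgeR, beside 0.107% of all bins (3 of 2794). At an unadjusted p below 0.05 there were 32 bins (12.0%, beside 11.8% on the other autosomes), and DESeq2 called 5 (1.87%, beside 1.43% of all bins). The bins nearest to passing began at 194000001 (log2 fold change 0.062 ± 0.014 SE, adjusted p 0.155), 155000001 (0.050 ± 0.014, 0.225), 117000001 (-0.047 ± 0.012, 0.172) and 241000001 (-0.051 ± 0.015, 0.242), and none passed. Without F1 control pool 4 the first of them did pass.

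Many more windows and bins were called between the 2 ifosfamide generations than between either and control, on chromosome 2 as elsewhere. The number of calls is not the size of change. Over 1 Mb bins of chromosome 2 the median absolute log2 fold change was 0.0217 between the generations. It was 0.0155 for F1 against control and 0.0147 for F2 against control. No F0 or F2 control pools entered the comparison of generations, so generation and the number of males in a pool cannot be told apart. The chromosome's total did not differ beyond the spread between pools: the share of counts differed by 0.0036 ± 0.0093 on the log2 scale (SE; exact permutation p = 0.907, adjusted 0.982; 0% of autosomes called, 3 unadjusted). The matched index differed by 0.0061 ± 0.0069 (SE; exact permutation p = 0.543, adjusted 0.794; 0% called, 3 unadjusted). Without F1 ifosfamide pool 5 these differences were -0.0052 for the share and -0.00029 for the index. The excess of empty windows differed by 0.062 ± 0.040 percentage points (SE; exact permutation p = 0.160, adjusted 0.361; 0% called, 5 unadjusted).

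Of 94263 chromosome 2 windows tested, 1719 (1.82%) passed between F2 and F1 ifosfamide, beside 2.01% of 1062540 windows tested. Of these, 1017 were higher in F2, beside 1.18% of all windows, and 702 lower, beside 0.832%. They fell in 261 bins of 1 Mb with at most 21 in a bin. Among called windows 30.6% had groups that did not overlap, against 1.21% of those tested, again a contrast favoured by selection on these same groups. In the highest stratum 5.11% of chromosome 2 windows and 6.09% of the others were called, with 418 higher and 156 lower on chromosome 2. In strata 15 to 17 the shares were 1.36% and 1.29%, with 227 higher and 235 lower. Strata 18 and 19 had 267 higher and 237 lower, nearer to even than the highest stratum. With the number of windows per read as a covariate the counts were 1684 higher and 1600 lower. The count also moved with single pools: it was 2866 without F1 ifosfamide pool 1, and 1080, 1020 and 648 without F1 ifosfamide pools 4, 6 and 3. It was 1102, 1095, 1030, 719 and 697 without F2 pools 5, 2, 6, 4 and 3.

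The window with the smallest p was again chr2:155784001-155785000 (log2 fold change 1.76 ± 0.17 SE, edgeR adjusted p = 3.20e-12), with the values given above. F2 pool 1, at 1.99 CPM, did not exceed the highest F1 ifosfamide pool there (2.00). The isolated window at chr2:127567001-127568000, low in F1 ifosfamide, had 11.1 CPM in the lowest F2 pool, 12.8 at the median and 15.3 in the highest, above every F1 ifosfamide pool (0.93 ± 0.11 SE, adjusted p 8.52e-08). At chr2:125562001-125563000 F1 ifosfamide had 2.25, 3.34 and 4.35 CPM, below every F2 pool (1.05, adjusted p 8.55e-08). At chr2:110972001-110973000 F1 ifosfamide had 0.611, 1.05 and 1.23 CPM and F2 had 1.73, 2.36 and 2.73, without overlap (1.14, adjusted p 4.14e-07). At chr2:120726001-120727000 they had 1.17, 1.91 and 2.71 against 2.92, 3.74 and 5.41, without overlap (0.96, adjusted p 3.62e-06).

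Among windows lower in F2, chr2:254380001-254381000 had 0.846, 1.31 and 1.69 CPM in F1 ifosfamide and 0.404, 0.521 and 0.794 in F2 (log2 fold change -1.16 ± 0.19 SE, edgeR adjusted p 6.16e-05). At chr2:224969001-224970000 the values were 1.01, 1.24 and 1.49 against 0.502, 0.585 and 0.676 (-1.05, adjusted p 0.000103). At chr2:251377001-251378000 they were 0.548, 0.721 and 0.932 against 0.179, 0.309 and 0.451 (-1.26, adjusted p 0.000368), and at chr2:148842001-148843000 they were 0.359, 0.428 and 0.546 against 0.0360, 0.140 and 0.188 (-1.72, adjusted p 0.000430). None of these 4 overlapped between the groups. At chr2:133952001-133953000, with 1.23, 1.54 and 2.19 against 0.515, 0.802 and 1.25, the groups touched (-0.94, adjusted p 0.000311).

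At the scale of 1 Mb, 20 of 267 bins on chromosome 2 passed between the generations (7.49%), beside 8.59% of 2794 bins. In F2, 13 were higher, beside 4.65% of all bins, and 7 lower, beside 3.94%. That split did not hold in other fits: edgeR with the size factors of DESeq2 gave 11 higher and 9 lower, DESeq2, which changes the scaling and the test together, 24 higher and 36 lower, and edgeR without F1 ifosfamide pool 5 gave 16 higher and 27 lower. The changes of called bins were small, between 0.039 and 0.12 on the log2 scale upward and between -0.093 and -0.047 downward. Bins that rose were low in control sperm, with a median of 0.244 CPM, and bins that fell were high, with a median of 0.456 CPM, while the median of all tested bins was 0.326. In the lowest 25% of bins by control signal, up to 0.265 CPM, 60 of 67 bins (89.6%) had a fold change above 0, with 9 called higher and 0 lower. In the highest 25%, above 0.405 CPM, 18 of 67 (26.9%) did, with 0 called higher and 5 lower. Over the 267 bins the correlation of fold change with log control signal was -0.58 (Spearman's rho -0.59), a description across bins, whose control values come from neither group compared. Bins on the other autosomes had the same relation. At the same levels, 85.9% of their low bins and 28.5% of their high bins had a fold change above 0, and their correlation was -0.44 (rho -0.52).

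**Figure D5:**
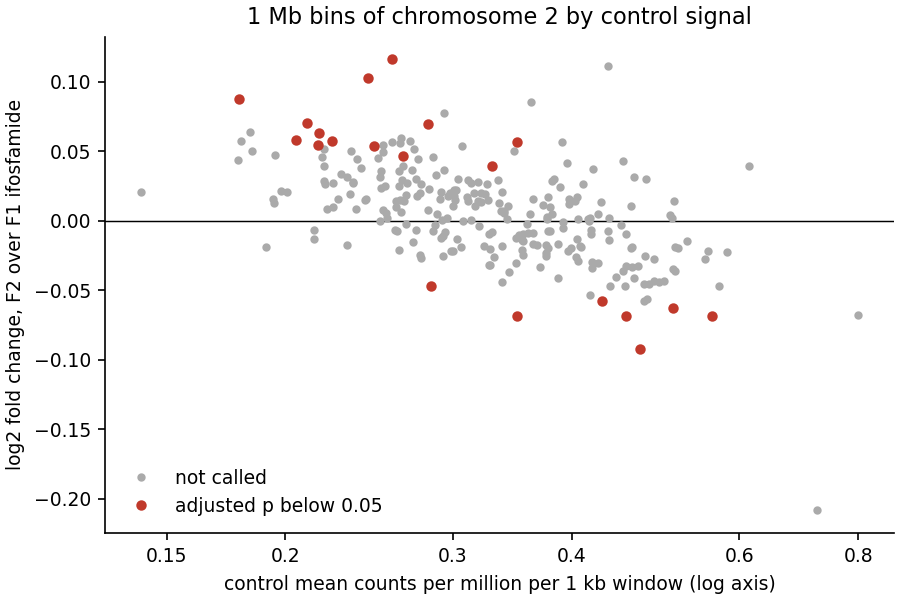
Log2 fold change of F2 over F1 ifosfamide (vertical axis) against mean control signal in CPM per 1 kb window (horizontal log axis) for the 267 bins of 1 Mb on chromosome 2; the 20 bins with an adjusted p below 0.05 are red. Called bins above 0 lie at lower control signal (0.179 to 0.350) than most called bins below 0 (0.284 to 0.562).

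The bins with the smallest p that rose began at 217000001, 92000001, 110000001, 66000001 and 265000001. The bin from 217000001 had 0.221 CPM in the lowest F1 ifosfamide pool, 0.234 at the median and 0.237 in the highest, and 0.245, 0.250 and 0.254 in F2, without overlap (log2 fold change 0.10 ± 0.014 SE, edgeR adjusted p 0.00118). The bin from 92000001 had 0.232, 0.245 and 0.247 against 0.254, 0.263 and 0.275, without overlap (0.12 ± 0.020 SE, adjusted p 0.00637). It contains the isolated strong window at chr2:92244001-92245000, which alone gave 8.36% of its counts. Without that window the ratio of group means fell from 0.12 to 0.079 on the log2 scale, and the groups still did not overlap. The bin from 110000001, the third lowest of the chromosome, had 0.165, 0.172 and 0.181 against 0.181, 0.184 and 0.187 (0.088, adjusted p 0.0177). The bins from 66000001 (0.070, adjusted p 0.0177) and 265000001 (0.058, adjusted p 0.0235) rose by less.

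The bins with the smallest p that fell began at 254000001, 258000001, 117000001, 235000001 and 251000001. The bin from 254000001 had 0.452, 0.469 and 0.472 CPM in F1 ifosfamide and 0.440, 0.443 and 0.454 in F2 (-0.069 ± 0.013 SE, edgeR adjusted p 0.0111), with overlap. The bin from 258000001 had 0.472, 0.488 and 0.498 against 0.448, 0.454 and 0.482 (-0.093 ± 0.017 SE, adjusted p 0.0111). The bin from 117000001 had 0.347, 0.355 and 0.362 against 0.334, 0.338 and 0.345, without overlap (-0.068 ± 0.013 SE, adjusted p 0.0111). The bins from 235000001 (-0.058, adjusted p 0.0257) and 251000001 (-0.069, adjusted p 0.0326) also fell. The largest change on chromosome 2, at the bin from 49000001, did not pass (-0.21 ± 0.068 SE, edgeR adjusted p 0.0654). F1 ifosfamide pool 4 had 0.952 CPM there. F2 pools 2 to 6 had 0.647 to 0.677, below every F1 ifosfamide pool, and F2 pool 1 had 0.764. The call was lost in 9 of 19 other settings at the bin from 251000001, in 8 at the bin from 265000001 and in 6 at the bin from 235000001. None of the 5 bins of the most variable stretch passed in any of the 3 comparisons, with log2 fold changes from -0.016 to 0.13.

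The number of called bins changed with single pools and with a covariate. Without F1 ifosfamide pool 5 there were 43 called bins on chromosome 2 and without F1 ifosfamide pool 2 there were 32. The number was 12 without F2 pool 6, 11 without F1 ifosfamide pool 6, 9 without F2 pool 4, 8 without F1 ifosfamide pool 4, and 7 without F1 ifosfamide pool 3 or F2 pools 2, 3 or 5. F1 ifosfamide pools had 1.17 to 1.25 windows per read and F2 pools 1.16 to 1.23, and with this number as a covariate 40 bins passed. The relation of fold change to control signal held in each of these fits, with correlations from -0.61 to -0.47 when 1 pool was left out, -0.47 being the value without F1 ifosfamide pool 5, and -0.56 with the covariate. In the lowest 25% the percent of bins above 0 then ran from 70.1% to 91.0%.

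Promoter sequence was available only for another assembly, and its relation to the signal was not tested. In the GRCr8 table of RefSeq, where a promoter is the 300 bases around a gene's start, the 2217 promoters on chromosome 2 had a mean of 10.98 CpG sites against 12.10 for 29788 promoters on the other autosomes. At least 15 CpG sites were found in 28.3% of them, against 32.9%, and their GC content was 51.2%, against 53.1%. Chromosome 2 ranked 4 from the lowest of the 20 autosomes in mean CpG sites, above chromosomes 15 (10.17), 11 (10.39) and 16 (10.74). That assembly differs from the build of the counts, so no promoter was matched to a window and no sequence is shown.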

How the data were processed

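MeDIP-seq read counts of 18 sperm DNA pools, 6 per group, were used, and the other libraries of the 34 in the labels were not analysed here. Per the file headers, the deposited tables hold raw read counts and RPKM per 1 kb window with the log2 fold change and p-value of the authors' edgeR test. The submitters' processing notes name Bowtie2, Trimmomatic, FastQC, SAMtools and edgeR with the build Rnor_6.0, without versions or settings. Each library is a pool of males, so p-values measure the spread between pools. In the edgeR fits that spread is partly borrowed from other windows or bins. The SE and p-value of a window or bin therefore do not rest on its own pools alone. The tests treat pools as independent, although pools of a lineage share sires, so the spread between families of F0 males is not measured. Descent from particular F0 males and ifosfamide cannot be told apart in the comparisons with F1 control. The RPKM deposited beside the counts were used only to find the number of windows counted per read, and the authors' log2 values and p-values only to count their calls.

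The chromosome, its comparisons and the lists of windows and bins were chosen with earlier results of these data known. Counts were divided by the autosomal total of a pool. The depth of 23336048 to 39440265 window counts leaves most single windows with few counts, and counting error alone is 1.07% of the mean for a 1 Mb bin. Whole-chromosome values were compared between groups by an exact two-sided permutation test over 924 splits of the pools, adjusted by Benjamini-Hochberg over 20 autosomes. Windows and 1 Mb bins were tested on the whole table with edgeR 4.0.16 (quasi-likelihood, TMM, filterByExpr with a minimum count of 10), adjusted over all features and called below 0.05. The alternatives were other scalings and tools (DESeq2 1.42.0, limma 3.58.1), count filters, bin sizes, strata, a replicate block, a covariate and leaving out each pool. Per comparison and direction, the 5 called windows and bins with the smallest p were named (2 where no bin was called), and in control sperm the 5 highest and lowest bins, the 5 highest windows and the 3 longest runs. The most variable stretch, the isolated windows and the relation of fold change to control signal were chosen after the values were seen. Scripts were tested on simulated data. R 4.3.3, python 3.11.15, numpy 2.4.6, pandas 2.3.3, scipy 1.17.1 and matplotlib 3.10.9 were used.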

Additional observations from a re-analysis of the deposited data

Results flagged for a closer look

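Within the groups of 6 pools, 117 sets of values were searched for a pool far from the other 5 (gap over range above 0.625), a rule by which chance flags about 1 in 20 groups. It found 8 (6.84%), near that rate, and 5 of them were F1 ifosfamide pool 5. Its share of autosomal counts on chromosome 2 was 8.83%, with the other 5 pools between 9.12% and 9.20%. Its matched index was -0.036, with the others between -0.0054 and 0.0074. The bin from 66000001 had 0.194 CPM there, with the others between 0.205 and 0.210, the bin from 241000001 had 0.268 (others 0.283 to 0.288) and the bin from 254000001 had 0.452 (others 0.465 to 0.472). F2 ifosfamide pool 1 was far above its group at the bin from 258000001, with 0.482 CPM (others 0.448 to 0.455), and at the window starting at 49325001, with 8.31 CPM (others 3.79 to 4.58). F1 control pool 1 was far below its group at the window starting at 198036001, with 0.525 CPM (others 0.966 to 1.12).

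Windows and bins named against the shared control were also compared directly between the ifosfamide generations by edgeR. They were chosen for extreme values in pools that enter this comparison too, so a difference is favoured by the choice and the counts support nothing further. The difference in log2 fold change, F2 minus F1, passed at 4 of those 8 bins: 0.12 from 92000001 (adjusted p 0.00637), 0.10 from 217000001 (adjusted p 0.00118), -0.068 from 117000001 (adjusted p 0.0111) and -0.047 from 241000001 (adjusted p 0.0415). Among windows that were low in F1 ifosfamide, it was 0.93 at 127567001 (adjusted p 8.52e-08), 0.80 at 1636001 (adjusted p 1.34e-05), 0.97 at 102159001 (adjusted p 1.44e-05), 0.72 at 214675001 (adjusted p 0.000338) and 0.68 at 257256001 (adjusted p 0.0386). The sixth window named in that comparison did not pass. Over all windows tested 1.18% were called higher in F2 and 0.832% lower. Among windows named in F2, it was 1.76 at 155784001 (adjusted p 3.20e-12), 1.05 at 125562001 (adjusted p 8.55e-08), 1.09 at 198036001 (adjusted p 6.89e-06), 0.52 at 50061001 (adjusted p 0.0191), -0.61 at 49325001 (adjusted p 0.00400) and -0.87 at 178366001 (adjusted p 0.0214), while the window named in F2 at 218342001 did not pass.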

How the results depend on the processing

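Chromosome 2 stood at 88.3% of the other autosomes in control, at 85.5% by the median window, 89.2% without windows empty in all pools and 89.4% without the highest 1%. Of its windows 0.985% were in the highest 1% of all and 21.4% in the highest 25%, and 7.60% had at most 2 counts over the control pools. None of the 9 whole-chromosome tests had an adjusted p below 0.05 under the settings run (lowest 0.173, for share in F2 against control without the highest 10% of windows), and directions near 0 changed: the matched index of F1 ifosfamide against control was -0.0030 with strata from control pools, its empty excess 0.051 by group medians, and that of F2 against control -0.00048 with at most 1 count. Leaving out 1 pool gave differences in share of -0.0023 to 0.0095 (F1 against control), 0.0021 to 0.0072 (F2 against control) and -0.0052 to 0.0067 (F2 against F1), in index of 0.00049 to 0.0096, 0.0066 to 0.012 and -0.00029 to 0.0085, and in empty excess of -0.041 to 0.0060, 0.017 to 0.068 and 0.038 to 0.076. The sign of the share in F1 against control changed without F1 control pools 1, 2 or 3 and without F1 ifosfamide pools 1, 2, 3, 4 or 6. The sign of share and index between the generations changed without F1 ifosfamide pool 5, and that of the empty excess in F1 without F1 control pool 4. The most variable stretch, left out after seeing the data, changed no direction or call.

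Called windows in F1 against control (60) were 32 by DESeq2, 24 by limma, 21 at a minimum count of 30, 92 without a filter and 10 to 185 with 1 pool left out. In F2 against control (12) they were 2 by DESeq2, 4 with all groups fitted together, 4 at a minimum count of 30 and 3 to 104 with 1 pool left out; called bins (0) were 5 by DESeq2, 1 in 5 Mb bins and 0 to 1 with 1 pool left out. Between the generations, called windows (1719) were 576 by DESeq2, 1076 at a minimum count of 30, 3284 with the covariate and 648 to 2866 with 1 pool left out, and called bins (20) were 71 in 100 kb bins, 11 in 5 Mb bins, 60 by DESeq2, 33 by limma, 40 with the covariate and 7 to 43 with 1 pool left out. The cause of these changes was not tested. No named window or bin reversed; the calls lost in 3 or more settings stand beside the results.

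The replicate numbers did not pair the pools (correlations of deviations from -0.27 to 0.13, with the own number highest in 0). With the replicate block, called windows were 33, 42 and 1010 in the 3 comparisons and called bins 0, 0 and 2.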
